A study of Citrus sinensis with 12 samples.

Results

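In seedling roots of Citrus sinensis (sweet orange), acid stress alone was set directly against copper stress alone. Acid-only roots grew at pH 3 with 0.5 µM CuCl2, and copper-only roots at pH 4.8 with 300 µM CuCl2. These groups, chosen by their treatment labels, hold 6 of the 12 RNA sequencing libraries of the study, 3 in each. The other 6 libraries came from roots given both treatments (pH 3 with 300 µM, called combined here) and from control roots (pH 4.8 with 0.5 µM). All seedlings were treated for 17 weeks. A library holds the roots of 4 seedlings from separate pots, so p-values here measure the spread among such pools. The acid-only and copper-only groups differ in both factors at once. A difference between them is therefore the distance between both stressed states, and the control libraries show on which side of control each state lies.

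Copper is a cofactor of enzymes that transfer electrons, such as Cu/Zn superoxide dismutase and laccases, and plant roots need it in traces. In excess it binds thiol groups, displaces other metals and drives the formation of reactive oxygen, and roots are the organ that holds most of it back. A high proton concentration acts by other routes: it depolarises the plasma membrane of root cells, weakens the calcium bridges of wall pectin and slows the uptake of cations. In Arabidopsis, tolerance of protons depends on the zinc-finger transcription factor STOP1, while copper is moved by COPT transporters and heavy-metal ATPases. The deposited tables give gene identifiers without names, and 0 of the 20122 identifiers were found in the RefSeq gene table of the species, so no gene below could be tied to these roles. For the same reason the labels could not be checked against marker genes of root tissue or of copper supply.

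Levels are in FPKM, that is, fragments relative to gene length and library depth. The spacing of low FPKM values put the depth at 17700000 to 22800000 fragments. At that depth 3 fragments on 1 kb equal 0.132 to 0.169 FPKM, which sets a floor for counting error alone. Across genes, which are not independent replicates, log levels correlated at r = 0.9874 to 0.9911 within the acid-only and copper-only groups and at 0.9238 to 0.9345 between them. Among replicates, a gene's SD had a median of 0.114 log2 units in acid-only, 0.126 in copper-only, 0.178 in combined and 0.114 in control roots. In bulk roots, fewer cells of a type and less RNA per cell cannot be told apart.

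About as many genes were called different between acid-only and copper-only roots as were not called. Most called differences were small, and most of the largest were at genes higher in acid-only roots. Of 18586 genes averaging 1 FPKM or more in either group, limma on log2(FPKM + 1) called 9487 different (51.0%), with a Benjamini-Hochberg threshold of 0.05. In acid-only roots 3780 of them were higher (20.3%) and 5707 lower (30.7%). Called differences of at least 2-fold (9.80%), that is of at least 1 on this scale, numbered 875 higher (4.71%) and 947 lower (5.10%). At 4-fold or more (1.37%), 196 genes were higher in acid-only roots (1.05%) and 58 lower (0.312%). Of called genes within 0.01 log2 units of the 2-fold limit, 47 lay beyond it and 44 fell short of it. Against the control libraries, which both comparisons share, 35.0% of the tested genes were called in acid-only roots and 52.4% in copper-only roots. In limma's treat test for a difference beyond 2-fold, 374 genes were called higher and 206 lower, 3.12% of all tested. The acid-only and copper-only libraries did not overlap for 9287 of the called genes, where 61.7% of all tested genes had no overlap.

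As deposited, which side was larger depended on the size of difference considered. Over all tested genes the median difference was -0.10 log2 units as deposited and 0.00 after the libraries were shifted to a common median. With that shift 4729 genes were higher and 4411 lower in acid-only roots (51.7% higher, against 39.8% as deposited), and the 2-fold set held 1058 higher and 717 lower (59.6%, against 48.0%). The larger side among all called genes, and among those of at least 2-fold, thus depends on the scale chosen. The larger side of the 4-fold set did not change: higher genes made up 77.2% of it as deposited, 82.2% after median scaling, 80.0% after quantile normalization and 66.3% with a pseudocount of 0.1.

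A gene not called need not be alike in both groups. For 5933 genes (31.9%) the 95% interval of the difference lay within 0.5 log2 units on either side of 0, and 621 of these were called all the same. For 3787 genes the difference was neither called nor bounded within 0.5.

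**Figure D1:**
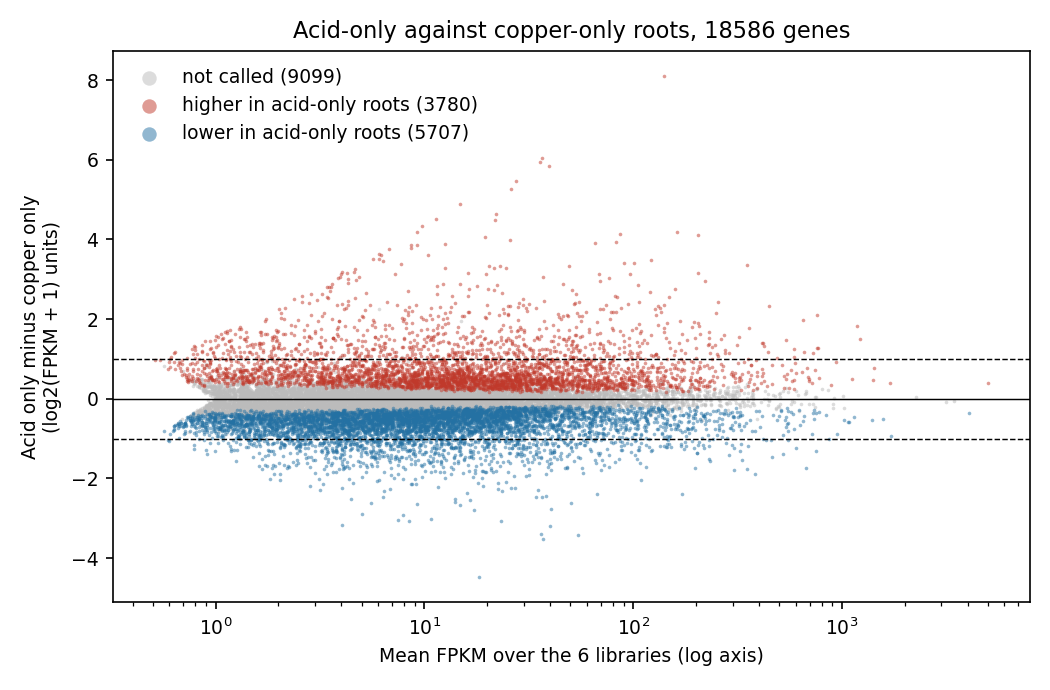
Difference between acid-only and copper-only roots in log2(FPKM + 1) units against the mean FPKM of the 6 libraries (log axis), 1 point per gene, with dashed lines at 2-fold. The 3780 genes higher in acid-only roots reach up to 8.11 and the 5707 lower ones down to -4.49. The slanted upper edge at low levels comes from genes near 0 FPKM in copper-only roots.

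As deposited and after median scaling, the level of a gene went with the side it took. Among 6468 genes with a mean under 5 FPKM over the 6 libraries, 895 were higher and 1845 lower in acid-only roots. Median scaling made this 1158 higher and 1395 lower, so the lower side stayed the larger with a smaller margin. Among 10993 genes of 5 to 100 FPKM, 2539 were higher and 3526 lower, and median scaling put the higher side ahead (3157 higher, 2750 lower). The 1125 abundant genes, of at least 100 FPKM, split into 346 higher and 336 lower. This turned under quantile normalization (321 higher, 380 lower) and widened under median scaling (414 higher, 266 lower). Quantile normalization left the lower side larger in the other classes too: 1188 higher and 1412 lower under 5 FPKM, 2816 and 3121 at 5 to 100 FPKM. The median difference was then -0.04, -0.03 and -0.03 log2 units from the lowest class to the highest. Level and side thus did not go together on that scale. Abundant genes differing by at least 2-fold were more often higher in acid-only roots under each of these scales: 100 against 66 as deposited, 93 against 76 after quantile normalization and 118 against 51 after median scaling. The share of genes with a called difference of at least 2-fold depends on the pseudocount and gives no order of the classes: it was 14.8% of the abundant genes and 8.35% of those under 5 FPKM with a pseudocount of 1, but 14.9% and 20.4% with 0.1.

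**Figure D2:**
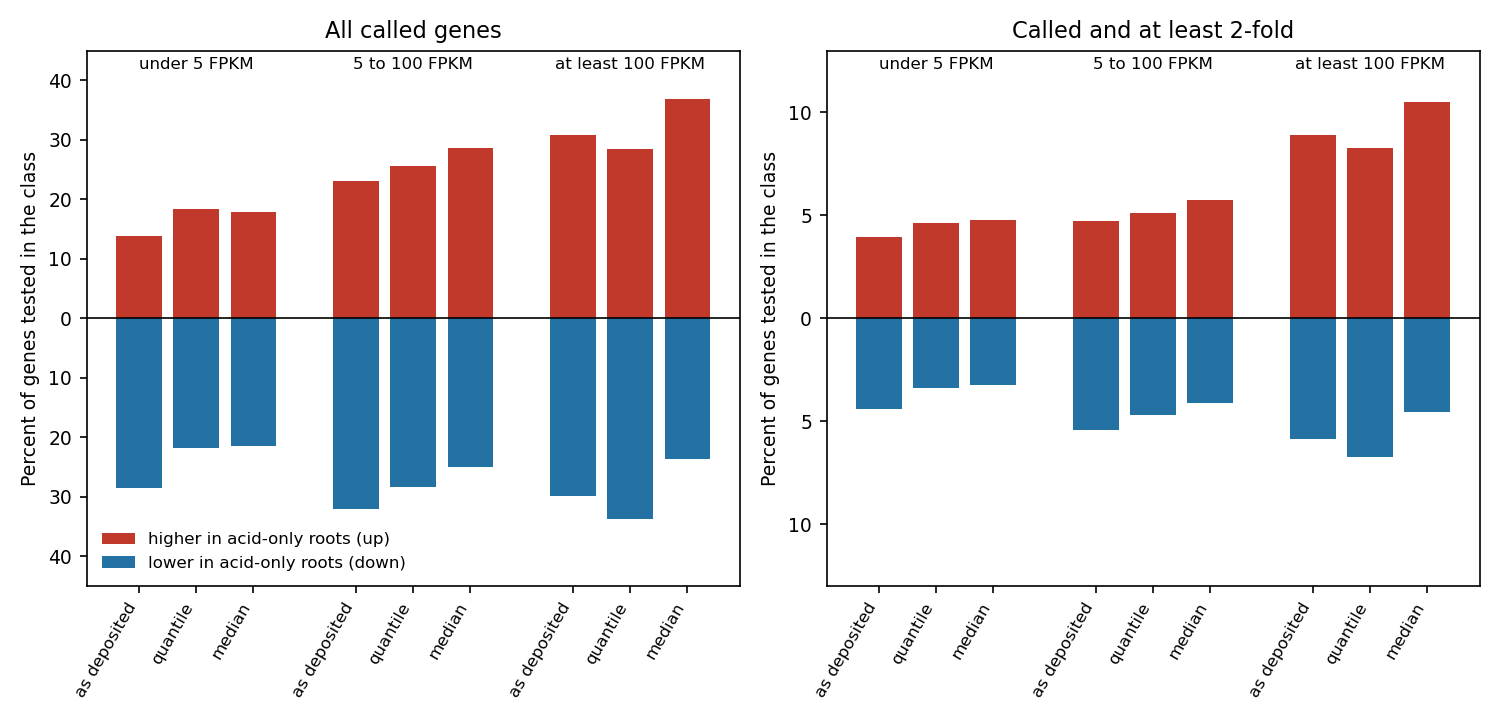
Percent of the tested genes of each level class called higher (up) or lower (down) in acid-only than in copper-only roots, for FPKM as deposited, after quantile normalization and after median scaling. As deposited, 13.8% of genes under 5 FPKM were higher and 28.5% lower. Of the abundant genes 30.8% were higher and 29.9% lower.

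The 2 largest positive differences of the named genes were at genes that were near 0 in copper-only roots and well expressed in the other groups. At orange1.1t05521, a gene of 176 bp on unplaced sequence (chromosome Un, 87539307 to 87539482, plus strand), FPKM was 196.02, 331.76 and 319.72 in the acid-only libraries, and it was listed at 0 in each of the 3 copper-only libraries (limma adjusted p = 4.2e-09). Combined roots had 338.37, 146.59 and 365.99 FPKM, and control roots 235.43, 208.22 and 487.49. Acid-only and control libraries overlapped, with a difference of -0.07 on the log2 scale and no call (SE 0.35, limma adjusted p = 0.9).

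Cs7g11650 on chromosome 7 (7639593 to 7640296, minus strand) had the same form. It was at 56.87, 82.58 and 79.74 FPKM in acid-only roots, against 0.00, 0.00 and 0.39 FPKM in copper-only roots. This is a difference of 6.03 log2 units (SE 0.27, limma adjusted p = 6.5e-09), which became 8.73 with a pseudocount of 0.1, since the copper-only values are at or near 0 (3 fragments on this gene equal 0.187 to 0.241 FPKM). Combined roots had 116.85, 59.46 and 119.51 FPKM and control roots 72.75, 79.76 and 131.65. Both genes varied among pools in the same way: the lowest acid-only library was replicate 1, the lowest combined library replicate 2 and the highest control library replicate 3.

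This form was shared by a small set. In 24 genes every copper-only library was at 0.5 FPKM or less while every acid-only library was at 5 FPKM or more, and the reverse was seen at 1 locus. The combined and control libraries had no part in that choice: 21 or 22 of the 24 reached 5 FPKM in each combined library, and 21 or 22 in each control library. In replicates 1 to 3 their median was 8.07, 14.0 and 15.5 FPKM in acid-only and 0.00, 0.00 and 0.165 in copper-only libraries. It was 20.7, 10.7 and 23.4 FPKM in combined and 13.7, 11.4 and 22.7 FPKM in control libraries. The medians of the set thus varied among pools as orange1.1t05521 and Cs7g11650 did, so the 24 need not be separate observations. Why they did so was not tested.

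The 2 largest negative differences of the named genes were at genes that copper alone raised far above control, with acid alone near the control level. Not all large negative differences had this form. Of the 58 genes lower by at least 4-fold, the control libraries overlapped those of acid-only roots alone for 23. They lay below both groups for 28 and between them for 7. Cs4g17240 on chromosome 4 (16966105 to 16966344, minus strand, 240 bp) was at 0.66, 0.67 and 0.22 FPKM in acid-only roots, and at 43.82, 47.09 and 16.66 FPKM in copper-only roots. The difference was -4.49 (SE 0.42, limma adjusted p = 2.3e-06) and became -5.83 with a pseudocount of 0.1. The acid-only values equal about 3 fragments or fewer on so short a gene (0.549 to 0.706 FPKM), so no ratio is given. Combined roots had 46.05, 85.01 and 41.35 FPKM, overlapping copper-only roots, and control roots 0.90, 0.24 and 2.56.

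Cs7g20780 on chromosome 7 (17791679 to 17797852, plus strand) rested on well-measured values in all groups. It stood at 4.29, 5.22 and 5.83 FPKM in acid-only roots, against 75.25, 66.38 and 65.87 FPKM in copper-only roots, where its mean was 13.5 times that of acid-only roots. The difference was -3.53 (SE 0.11, limma adjusted p = 5.3e-10). Control roots, at 5.03, 4.54 and 5.18 FPKM, overlapped the acid-only libraries, and combined roots, at 28.49, 36.28 and 30.63 FPKM, lay apart from both stressed groups and between them.

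Genes averaging at least 100 FPKM over the 6 acid-only and copper-only libraries were ranked separately. The largest positive difference among them was again that of orange1.1t05521. Cs7g03770 on chromosome 7 (1743669 to 1745148, minus strand) was at 328.41, 335.58 and 260.12 FPKM in acid-only roots, and at 13.11, 15.16 and 19.87 FPKM in copper-only roots, 19.2 times more in the mean of acid-only roots (difference 4.19, SE 0.14, limma adjusted p = 5.4e-10). Its level was 328 ± 37.6 FPKM in combined and 279 ± 16.5 FPKM in control roots (SD, n = 3 each), so copper-only roots stood alone. Cs7g01050 on chromosome 7 (36794 to 37597, minus strand) was at 69.50, 55.44 and 41.16 FPKM in acid-only roots, and at 265.91, 291.96 and 304.56 FPKM in copper-only roots (difference -2.38, SE 0.20, limma adjusted p = 1.1e-06). Both stressed groups were above control at this gene: relative to the control libraries that both comparisons share, it rose by 2.73 (SE 0.20, limma adjusted p = 4.5e-06) with acid alone and by 5.11 (SE 0.20, limma adjusted p = 2.4e-09) with copper alone. Control roots had 6.12, 6.92 and 9.23 FPKM.

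Cs4g03130 on chromosome 4 (1599138 to 1600737, minus strand) was raised in copper-only roots. Its values were 39.58, 42.35 and 43.63 FPKM in acid-only roots, and 190.83, 151.39 and 190.17 FPKM in copper-only roots (difference -2.05, SE 0.18, limma adjusted p = 1.6e-06). Combined roots averaged 103 ± 26.2 FPKM and control roots 46.8 ± 10.4 FPKM (SD, n = 3 each), and the control libraries overlapped those of acid-only roots.

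The tables also list loci that carry no annotated identifier and are referred to as assembled loci. Of 1230 tested, 237 were higher (19.3%) and 252 lower (20.5%) in acid-only roots, against 20.3% and 30.7% of all tested genes. By at least 2-fold, 77 were higher (6.26%) and 53 lower (4.31%), against 4.71% and 5.10% of all tested genes. The locus on chromosome 9 from 1248948 to 1250649 had 25.32, 23.73 and 24.24 FPKM in acid-only roots, and 0.99, 1.12 and 0.23 FPKM in copper-only roots, which is 31.3 times more in the mean of acid-only roots (difference 3.88, SE 0.22, limma adjusted p = 3.9e-08). Control roots, at 14.63, 11.15 and 12.13 FPKM, lay between, so this locus moved in both stressed groups and in opposite directions: by 0.91 with acid alone (SE 0.22, limma adjusted p = 0.0072) and by -2.97 with copper alone (SE 0.22, limma adjusted p = 2.8e-07).

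The locus on chromosome 1 from 25975246 to 25976802 was at 12.92, 20.07 and 21.32 FPKM in acid-only roots, and at 0.27, 0.32 and 0.27 FPKM in copper-only roots (difference 3.86, SE 0.21, limma adjusted p = 2.5e-08), 63.2 times more in the mean of acid-only roots. The difference became 5.53 with a pseudocount of 0.1. Its control libraries, at 26.13, 25.32 and 41.12 FPKM, lay above every acid-only library. Relative to control, this locus moved by -0.73 with acid alone (SE 0.21, limma adjusted p = 0.017). With copper alone it moved by -4.60 (SE 0.21, limma adjusted p = 6.1e-09). On the other side, the locus on unplaced sequence from 8609164 to 8610312 was listed at 0 in each of the 3 acid-only libraries and had 10.03, 7.70 and 6.47 FPKM in copper-only roots (limma adjusted p = 1.1e-08). It is the locus counted above as near 0 in acid-only roots, and control roots had 0.05, 0.10 and 0.08 FPKM of it, against 10.25, 12.74 and 8.92 in combined roots, so it was detected at 5 FPKM or more only in the 6 libraries with 300 µM copper. The locus on unplaced sequence from 32474959 to 32477014 had 1.67, 0.85 and 0.61 FPKM in acid-only roots, and 15.75, 16.53 and 15.45 FPKM in copper-only roots (difference -3.08, SE 0.19, limma adjusted p = 6.6e-08). Its control libraries, at 0.31, 0.16 and 0.32 FPKM, lay below both groups.

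**Figure D3:**
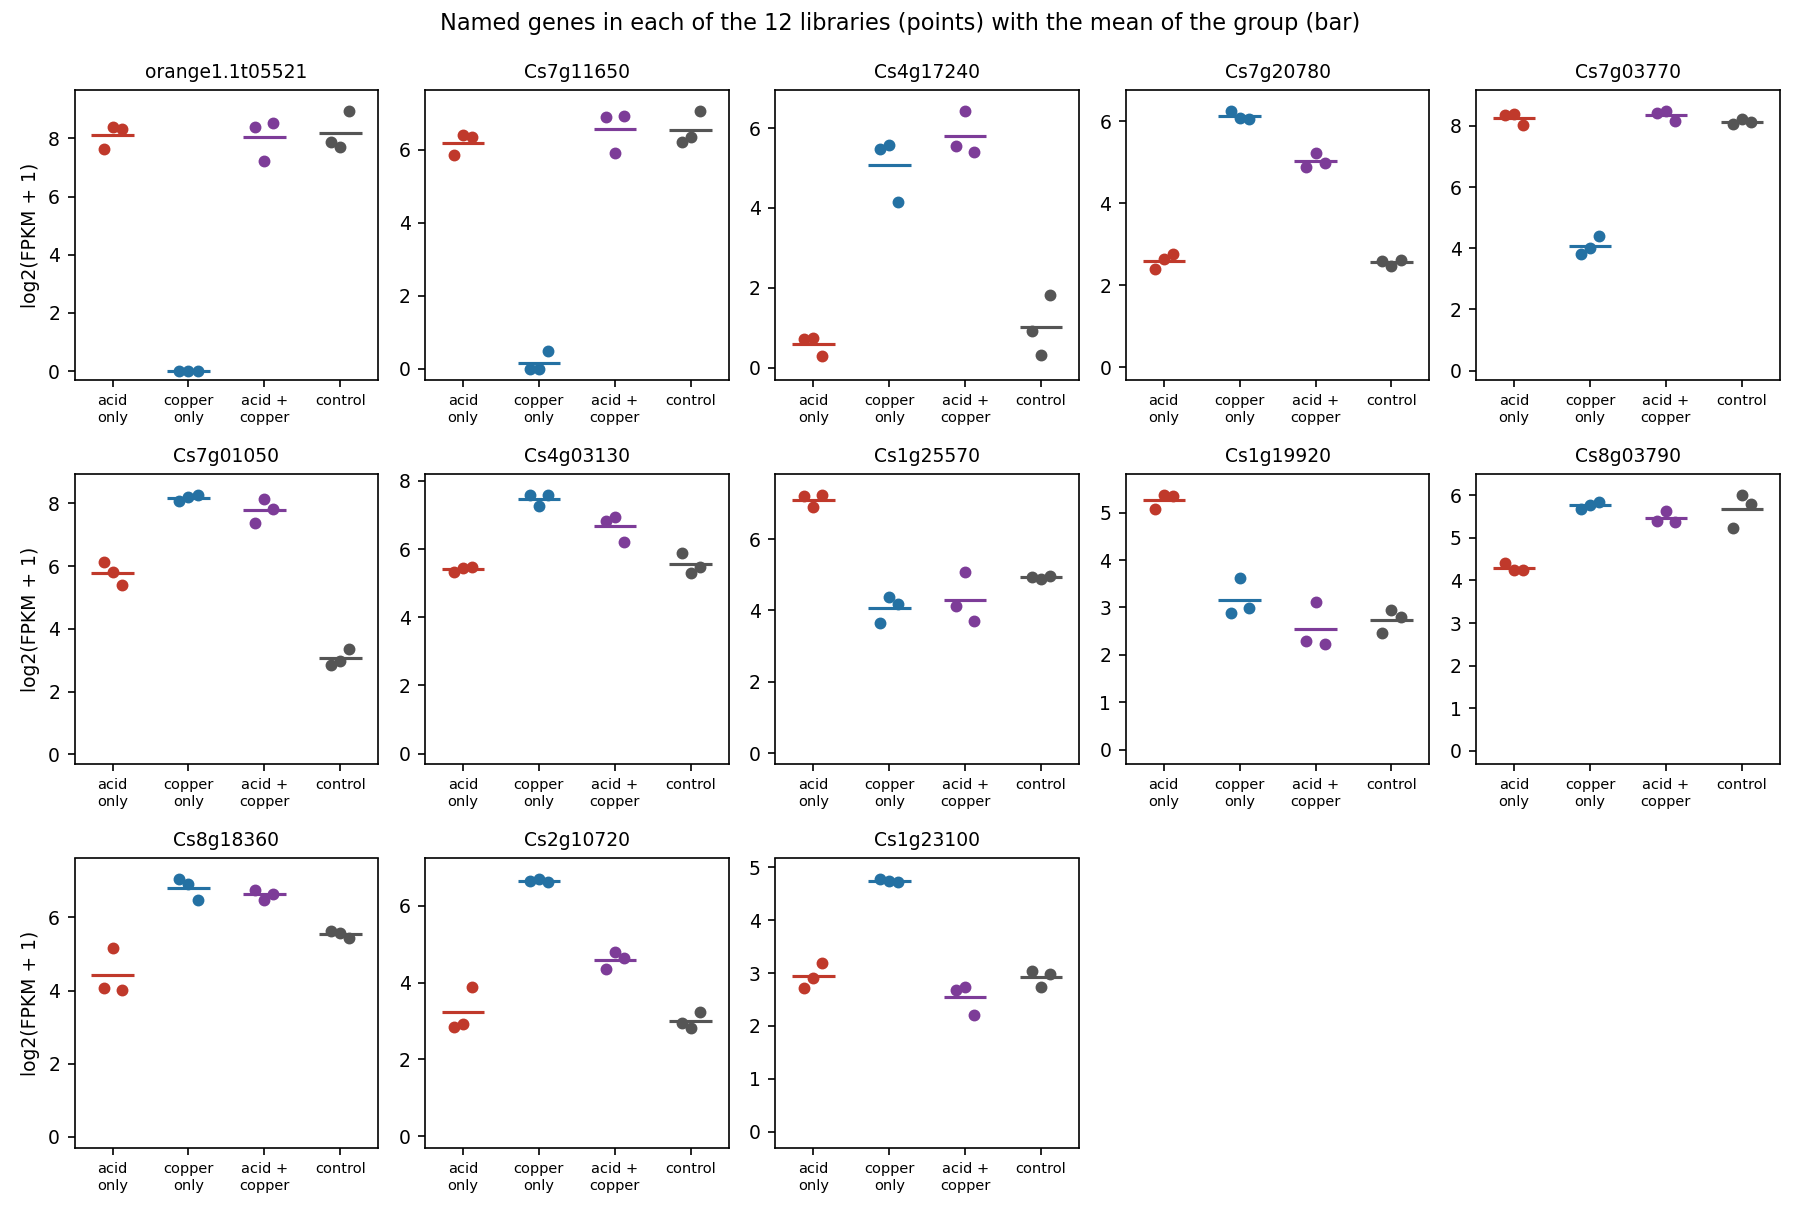
Level of the 13 named genes with annotated identifiers in log2(FPKM + 1) units in each library, with acid-only, copper-only, combined and control roots from left to right, a point per library and a bar at the mean of the group. In the panels of orange1.1t05521, Cs7g11650 and Cs7g03770 copper-only roots alone are low, and in those of Cs1g25570 and Cs1g19920 acid-only roots alone are high.

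Control and combined libraries did not enter the size of the difference and were used to place the 2-fold genes. A position was given to each gene on the log scale, with 0 at the acid-only mean and 1 at the copper-only mean. For the 875 genes higher in acid-only roots, the median position was 0.23, 0.23 and 0.22 in the 3 control libraries, and the control mean was nearer to acid-only than to copper-only roots for 673 of them (76.9%). For the 947 genes lower in acid-only roots, the median position was 0.02, -0.02 and 0.04 in the control libraries, and 804 genes (84.9%) were nearer to acid-only roots. Over all 18586 tested genes that share was 61.4%. Most differences of at least 2-fold thus had copper-only roots on the far side from control, in both directions.

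The place of the combined roots differed by direction, and more so at 4-fold than at 2-fold. For genes higher in acid-only roots, the median position of the combined libraries was 0.34, 0.30 and 0.34, and 66.4% of the genes were nearer to acid-only roots. For genes lower in acid-only roots, the positions were 0.50, 0.60 and 0.56, and 44.0% were nearer to acid-only roots, where 53.8% of all tested genes were. The division was wider among genes with differences of at least 4-fold. Of the 196 higher ones, 78.1% lay nearer to acid-only roots in the combined group (Wilson 95% interval 71.8% to 83.3%), while of the 58 lower ones 15.5% did (8.38% to 26.9%). These intervals treat genes as independent, which they are not. At 2-fold, intermediate levels were the most frequent form in both directions: the combined libraries lay between both groups without overlap for 362 of the 875 higher and 361 of the 947 lower genes. They overlapped acid-only libraries alone for 270 of the higher and 231 of the lower genes, and copper-only libraries alone for 146 of the higher and 243 of the lower genes.

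In summed FPKM the 2-fold sets lay about midway in combined roots in both directions. The 875 higher genes held 10.8% to 11.1% of the summed FPKM in acid-only, 3.53% to 3.64% in copper-only, 7.52% to 7.68% in combined and 8.57% to 8.82% in control roots. The 947 lower genes held 2.88% to 3.09% in acid-only, 7.60% to 8.06% in copper-only, 5.32% to 5.59% in combined and 3.40% to 3.45% in control roots. The 4-fold sets lay further to one side. Their 196 higher genes held 2.67%, 2.75% and 2.72% of the summed FPKM in acid-only roots, against 0.404%, 0.418% and 0.422% in copper-only roots, which follows from how they were chosen. In combined roots they held 1.93%, 1.85% and 1.95%, and in control roots 1.92%, 1.90% and 2.13%. The 58 lower genes held 0.0628%, 0.0602% and 0.0581% in acid-only roots, against 0.399%, 0.387% and 0.377% in copper-only roots. In combined roots they held 0.318%, 0.345% and 0.305%, below the copper-only libraries but nearer to them than to acid-only roots, and in control roots 0.0466%, 0.0396% and 0.0467%, below the acid-only libraries.

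By the overlap of libraries, the control group fell into several forms. Of the 875 genes higher in acid-only roots, the control libraries overlapped those of acid-only roots alone for 302 and those of copper-only roots alone for 74, lay between without overlap for 369, above both for 109 and below both for 5. Of the 947 genes lower in acid-only roots, they overlapped acid-only roots alone for 362 and copper-only roots alone for 76, lay between for 241, below both for 254 and above both for 5. The last form but one, a gene raised with acid and raised further with copper, includes Cs7g01050. Over all tested genes, control libraries had no overlap with acid-only libraries for 54.1% of genes and none with copper-only libraries for 63.0%. The corresponding shares for combined libraries were 44.1% and 47.9%.

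**Figure D4:**
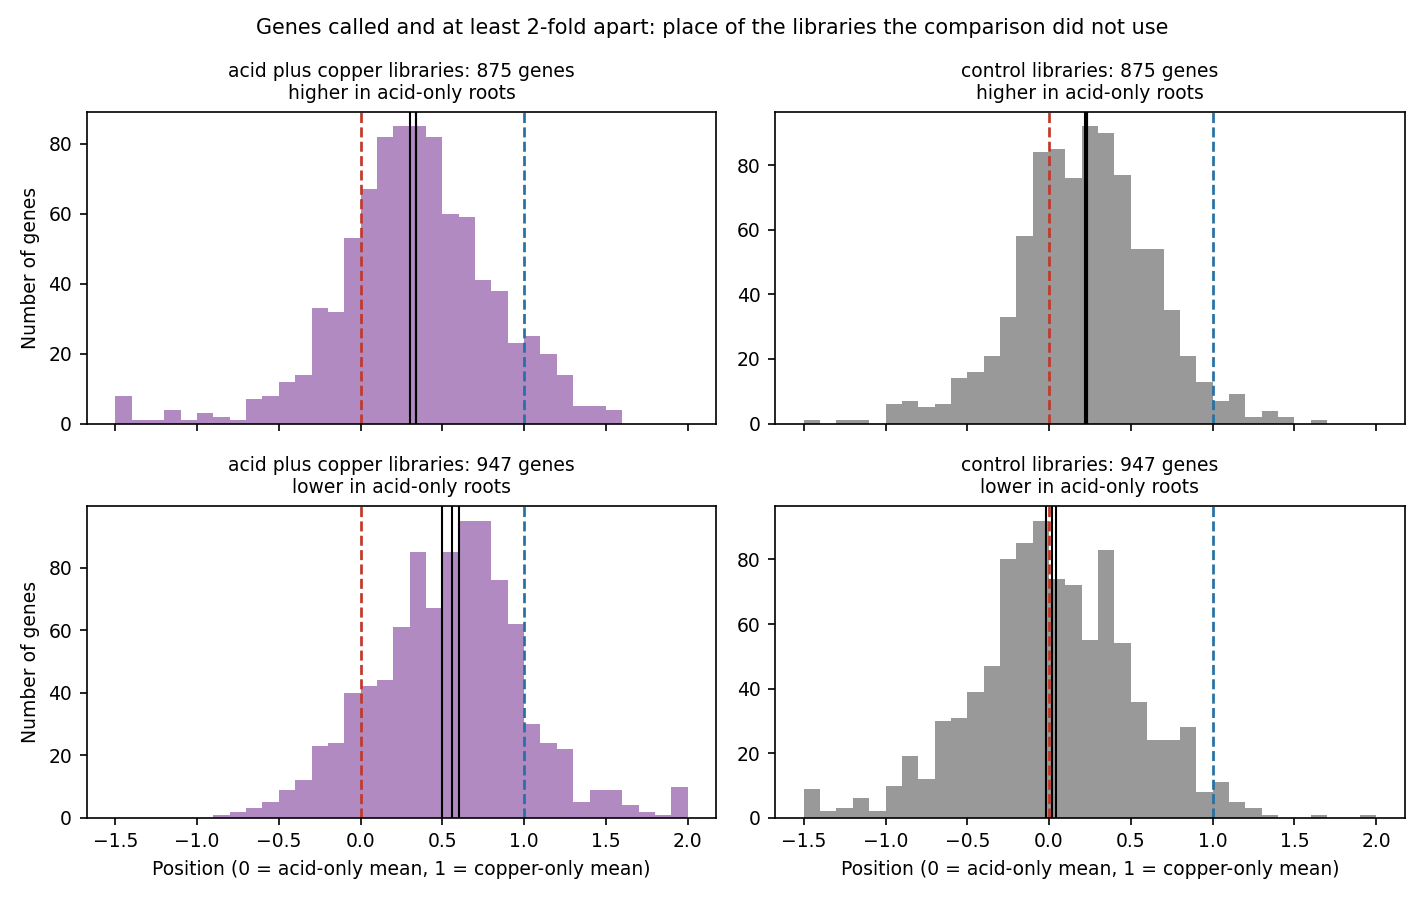
Number of genes by position on the line from the acid-only mean (0, red dashes) to the copper-only mean (1, blue dashes), for combined (left) and control roots (right), with black lines at the median of each library. Positions beyond -1.5 or 2 are drawn in the outermost bins. Control medians lie at 0.22 to 0.23 for the 875 genes higher in acid-only roots and at -0.02 to 0.04 for the 947 lower ones, and combined medians at 0.30 to 0.34 and at 0.50 to 0.60.

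A gene can also set a single stressed group apart from all other libraries. Copper-only roots lay below each of the 9 others, by at least 2-fold from the nearest group mean, for 217 genes, and above them for 70. Acid-only roots lay above each of the 9 others to that extent for 46 genes and below for 2. All these counts were drawn from the 18586 tested genes, of which only those passing a level rule could enter. They depend on the 2-fold gap. Without it, copper-only roots lay below the 9 others for 1522 genes and above them for 1579. Acid-only roots then lay above for 711 and below for 538. By the level rule, a group counted as above needed a mean of at least 5 FPKM. For a group counted as below, each other group needed that mean. The genes that could enter therefore differ between above and below, and the difference between these counts was not tested.

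Among the 46, Cs1g25570 on chromosome 1 (27875066 to 27876906, minus strand) had the widest gap. Its level was 145.65, 117.58 and 149.08 FPKM in acid-only roots, and 11.59, 19.90 and 17.06 FPKM in copper-only roots (difference 3.03, SE 0.27, limma adjusted p = 1.7e-06). Combined roots, at 16.26, 32.84 and 12.10 FPKM, did not keep the acid-only level, and control roots had 29.84, 28.42 and 30.05. Acid alone raised it by 2.18 over control (SE 0.27, limma adjusted p = 0.00011), and copper alone moved it by -0.86 against the same control libraries (SE 0.27, limma adjusted p = 0.018). Cs1g19920 on chromosome 1 (23077109 to 23077600, minus strand) had 32.59, 40.51 and 39.64 FPKM in acid-only roots, and 6.37, 11.28 and 6.98 FPKM in copper-only roots, 4.58 times more in the mean of acid-only roots (limma adjusted p = 1.3e-05), with 3.71 to 7.72 FPKM in combined roots and 4.52 to 6.66 FPKM in control roots.

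The 2 genes at which acid-only roots stood below all others by at least 2-fold were both on chromosome 8. Cs8g03790 (1914761 to 1915387, minus strand) was at 20.19, 17.82 and 17.98 FPKM in acid-only roots, and at 49.78, 53.91 and 56.67 FPKM in copper-only roots (difference -1.47, SE 0.16, limma adjusted p = 7.2e-06). Copper alone moved it by 0.09 relative to control, with no call (SE 0.16, limma adjusted p = 0.64). Cs8g18360 (20993803 to 20994946, minus strand) was at 15.82, 34.98 and 15.23 FPKM in acid-only roots, with replicate 2 above the others, and at 131.29, 119.38 and 87.77 FPKM in copper-only roots (difference -2.39, SE 0.24, limma adjusted p = 5.1e-06). Control roots, at 48.36, 46.69 and 42.34 FPKM, lay between: acid alone moved the gene by -1.13 (SE 0.24, limma adjusted p = 0.0037) and copper alone by 1.26 (SE 0.24, limma adjusted p = 0.00084).

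Copper-only roots stood highest above the other groups at Cs2g10720 on chromosome 2 (8029187 to 8030953, plus strand). It had 6.21, 6.58 and 13.89 FPKM in acid-only roots, and 98.87, 102.37 and 97.15 FPKM in copper-only roots (difference -3.43, SE 0.22, limma adjusted p = 1.2e-07). Combined roots reached 19.34 to 26.83 FPKM and control roots 6.06 to 8.43. At Cs1g23100 on chromosome 1 (25723176 to 25725894, plus strand) the values were 5.54, 6.50 and 8.15 FPKM in acid-only roots, and 26.48, 25.76 and 25.28 FPKM in copper-only roots (difference -1.81, SE 0.15, limma adjusted p = 1e-06). Its combined libraries, at 3.61 to 5.67 FPKM, showed none of the rise seen with copper alone. The widest gaps below the other groups were those of orange1.1t05521 and Cs7g11650.

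Genes differing in one direction lay side by side in places. Of the 15746 pairs of neighbouring tested genes on the 9 chromosomes, both were at least 2-fold higher in acid-only roots in 100, both lower in 112, and opposite in 62. The next neighbour of a higher gene was higher too in 13.6% of cases, against 4.71% of all tested genes, and that of a lower gene was lower too in 13.7%, against 5.10%. Neighbours can be copies of one another or parts of one transcript, and reads shared between them would raise these shares. That was not tested.

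The longest run higher in acid-only roots held 6 genes on chromosome 5 within 59.9 kb (12817063 to 12876941), with differences of 1.29 to 2.29. The means of its members were 2.72 to 27.5 FPKM in acid-only roots, and 0.427 to 10.4 FPKM in copper-only roots. The next longest were 3 runs of 4 genes. Of these, the run on chromosome 3 (21644329 to 21696921) had differences of 1.24 to 2.32, and the others are not described. The longest runs lower in acid-only roots were 3 of 5 genes each, of which 2 are described. In one, 5 genes on chromosome 2 (29445448 to 29508142), all on the plus strand, were strongly expressed, with means of 28.3 to 578 FPKM in acid-only roots, and 80.2 to 1160 FPKM in copper-only roots. A further 5 on chromosome 4 (1661868 to 1714848), all on the minus strand, had differences of -1.43 to -1.81. Cs4g17240 lies in a separate run of 4 on chromosome 4 (16955746 to 16978595). Members of a run were chosen as called and at least 2-fold apart in one direction, so their calls are no further evidence.

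Gene length went with the size of difference but little with the share of calls. The shortest of 3 equal classes by genomic span had 50.9% of its genes called and 15.8% called with a difference of at least 2-fold. In the longest class the values were 50.5% and 4.65%. With a pseudocount of 0.1 the 2-fold shares were 23.5% of the short and 7.43% of the long class. Levels and error moved with length: the median level over the 6 libraries was 6.07 FPKM in the short and 11.0 FPKM in the long class, and the median SD among acid-only libraries 0.155 and 0.092 log2 units. Their part in the difference was not tested. Direction also followed length, with 1471 higher and 1683 lower among short genes and 944 higher and 2183 lower among long ones. Among long genes the lower side stayed the larger: 1108 were higher and 1783 lower after quantile normalization, and 1267 higher and 1598 lower after median scaling. Among short genes the higher side became the larger, with 1661 against 1524 after quantile normalization and 1752 against 1374 after median scaling.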

How the data were processed

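For every library the authors deposited FPKM, position and strand of 20122 genes. Per the submitters' processing notes, the tools were DESeq2 1.22.1, StringTie 1.3.4d, featureCounts 1.6.2, HISAT2 2.1.0 and fastp 0.19.3 (roles not stated). For genome build, annotation and strand setting nothing is given in the sources used here. Values of near-identical copies and overlapping genes are therefore uncertain. Control titles state 5 µM copper, but the dose label (0.5 µM) was followed.

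A limma 3.58.1 model (R 4.3.3) with a mean per group and a variance trend was fitted to log2(FPKM + 1) of all 12 libraries, for genes averaging 1 FPKM or more in acid-only or copper-only roots (18586 tested, 1536 left out). Tests were two-sided with Benjamini-Hochberg adjustment over all tested genes. The scale understates changes at low levels. The fit and the depth estimate were tested on simulated data. At the recovered depth 76.1% to 79.0% of low values of short genes lay within 0.15 of a whole fragment (30% by chance), so no counts were rebuilt. Floors of single genes use the genomic span and are too low for genes with introns.

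Named genes average 5 FPKM or more in their higher group. They are the 2 largest called differences per direction, without overlap of libraries, among identifiers, assembled loci and genes of at least 100 FPKM, and the 2 widest gaps where a stressed group lay beyond the 9 other libraries. The 2 longest runs per direction were described, and other runs tied with these in length were not. Groups, rules and alternatives were chosen with earlier results of these data known.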

Additional observations from a re-analysis of the deposited data

How the results depend on the processing

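All 17 named genes and loci kept their direction and call under the 17 alternatives, which changed the pseudocount, filter, scale, libraries fitted, variance trend or replicates. They were chosen for large differences or gaps in these same libraries, so this does not show how stable other calls are. Leaving out a replicate left 8069 to 8594 called genes, 870 to 902 higher and 913 to 995 lower by at least 2-fold, and 193 to 201 higher and 53 to 64 lower by at least 4-fold. A fit without the more variable combined libraries called 10411. The size classes depend on the pseudocount by construction: with 0.1, 2774 genes changed by at least 2-fold (1604 lower), and at 4-fold or more 374 rose above and 190 lay below copper-only roots. The 4-fold lower count was 94 with a pseudocount of 0.5 and 93 after rescaling to TPM. The share of lower 2-fold genes with the control mean nearer to acid-only roots (84.9%) was 77.7% and 81.9% with pseudocounts of 0.1 and 0.5, 87.7% after quantile normalization, 87.3% after median scaling, and 81.9% to 86.6% without a replicate. The share of higher 2-fold genes with the combined mean nearer to acid-only roots (66.4%) was 62.8% after median scaling. The cause of these shifts was not tested. Replicate numbers did not pair the samples: deviations of same-numbered libraries correlated at 0.01, 0.081 and 0.00 across genes, and a replicate block gave 9634 calls. At 17700000 to 22800000 fragments per library, values near the floor limit the size of the largest differences.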

Other observations

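The differences between acid-only and copper-only roots were spread over the genome. The share of tested genes called was 46.6% on unplaced sequence and at most 54.2% on a chromosome, and on the 9 chromosomes 9.16% to 10.5% differed by at least 2-fold. Chromosome 2 had 113 genes higher and 105 lower in acid-only roots by at least 2-fold. Chromosome 6 had 62 higher and 93 lower. Neither split was tested. Of the assembled loci 39.8% were called, and of the identifiers placed on chromosomes 52.4%, a difference that was not tested. The median level was 2.37 FPKM for assembled loci and 10.3 FPKM for those identifiers, and the median SD among acid-only libraries 0.188 and 0.109 log2 units. Only 8 genes differed by at least 2-fold without being called.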
